A study of Rattus norvegicus with 8 samples.

Results

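Prostanoids and leukotrienes are made from arachidonic acid, and 10 genes of that pathway were followed in the rat colon: the cyclooxygenases Ptgs1 and Ptgs2, the terminal prostanoid synthases Ptges, Ptgis and Hpgds, the prostaglandin-degrading enzyme Hpgd, the leukotriene genes Alox5, Alox5ap and Ltc4s, and the lipoxygenase Alox15. They were chosen by name, and their probes were found through the transcript accessions that the array gives. All 10 had a probe (11 probes in all) and all 10 passed the filter on dim probes, among 19899 genes tested. RNA was taken from a piece of middle colon, and the arrays held 16 rats, all female and Wistar, 4 per diet out of 10 fed, which were 6 weeks old and received their diet for 3 weeks. The REF group received the AIN-93M diet, the C10 group a 10% cocoa diet with cocoa polyphenols and fiber, the CF group a diet with cocoa fiber very low in polyphenols, and the I group a diet with inulin, matched in soluble fiber. The labels name no allele or agent beside the diets, and 4 rats per diet are the replicates. Each of 8 two-colour arrays held 2 rats of different diets, so each rat was measured once, in Cy5 or in Cy3, with 2 rats of each diet in either dye.

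Cyclooxygenases turn arachidonic acid, released from membranes by phospholipases, into prostaglandin H2, from which separate synthases make prostaglandin E2, prostaglandin D2, prostacyclin and thromboxane. Lipoxygenases take the other route: Alox5, with its partner Alox5ap, makes leukotriene A4, which Ltc4s joins to glutathione to give the cysteinyl leukotrienes. In the gut these lipids act on smooth muscle, blood vessels, secretion and immune cells, and mast cells are a known source of prostaglandin D2 and cysteinyl leukotrienes.

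In the C10 group, 4 of the 10 genes changed against REF. Ptgis, Hpgds and Ltc4s fell and Alox15 rose. Ptgis, the prostacyclin synthase, was 2.02-fold lower. Hpgds, the hematopoietic prostaglandin D synthase, was 1.48-fold lower, and Ltc4s was 1.27-fold lower, whereas Alox15 was 1.49-fold higher. Of all genes tested, 0.945% passed the same threshold in this comparison (0.332% higher and 0.613% lower), which was an adjusted p below 0.05 in limma with Benjamini-Hochberg adjustment over all 19899 genes. In CF against REF and in I against REF, 0 of the 10 passed, as did 0 of all genes. An unadjusted p below 0.05 in limma was found for 7 members in C10 (17.1% of all genes), 1 member in CF (Alox15; 6.35%) and 0 members in I (5.71%). The rats of CF or I lay all on one side of the REF rats for 0 members, beside 1.89% of all genes in CF and 2.07% in I. The median log2 fold change of the 10 genes was -0.30 in C10, 0.02 in CF and 0.06 in I, beside 0.01 for all genes in each of these comparisons. The 3 comparisons share the REF rats. No array held a CF rat beside a REF rat, whereas C10 rats and I rats did share arrays with REF rats.

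**Figure D1:**
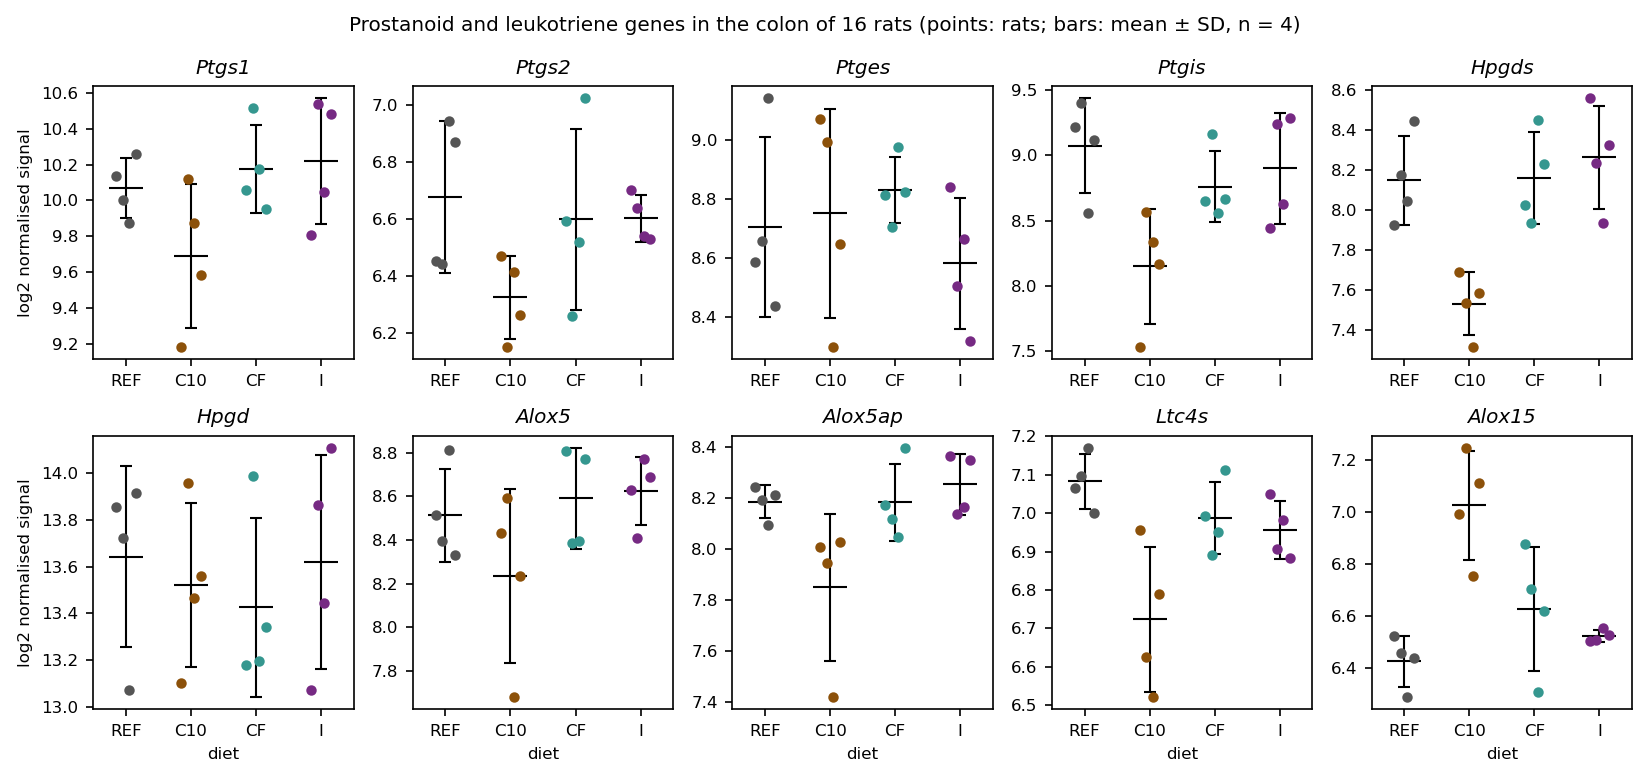
Each panel plots the log2 normalised signal (vertical axis, with its own range) of 1 gene in each rat by diet (horizontal axis), with the mean and SD of 4 rats as bars. The C10 rats lay below the REF rats for Hpgds, Ltc4s and Alox5ap and above them for Alox15; for Ptgis, 1 C10 rat and 1 REF rat met at 8.57 and 8.56.

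Of the prostanoid genes, Ptgs1 encodes the constitutive cyclooxygenase. Its brighter probe gave a log2 signal of 10.07 ± 0.17 (SD, n = 4) in REF, 9.69 ± 0.40 in C10, 10.18 ± 0.24 in CF and 10.22 ± 0.35 in I. The lowest value was that of C10 rat 1 (9.18), and the C10 and REF rats overlapped. The difference between C10 and REF was -0.40 (SE 0.13) on the log2 scale and did not pass (limma, adjusted p = 0.15). The other Ptgs1 probe was dim, at 6.52 to 6.82 over the 16 rats, and its mean was 6.66 in REF and 6.71 in C10, so the dim probe did not show the difference of the brighter one. Averaging the 2 probes gave -0.17 (adjusted p = 0.36 in limma).

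Ptgs2, the inducible cyclooxygenase, was near the lower end of what the arrays could measure and was well above background in 15 of the 16 rats. Its log2 signal was 6.45, 6.44, 6.94 and 6.87 in the REF rats and 6.47, 6.15, 6.41 and 6.26 in the C10 rats. REF rats 1 and 2 lay within the range of the C10 rats. The fitted difference was -0.29 (SE 0.12, limma adjusted p = 0.26), and it ranged from -0.94 (processed signals) to -0.17 (position on the slide as a term) over the other settings without passing in any. Ptges, the inducible prostaglandin E synthase, had 8.70 ± 0.30 in REF and 8.75 ± 0.35 in C10 (SD, n = 4), and its fitted difference of 0.12 had a 95% interval from -0.21 to 0.45.

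Ptgis had the largest log2 change among the 10 genes as reported, although Alox15 exceeded it without the offset in the background correction (1.20 against -1.18) and in the processed signals (1.78 against -1.27). Its log2 signal was 9.22, 9.40, 8.56 and 9.12 in REF rats 1 to 4 and 7.53, 8.57, 8.34 and 8.17 in C10 rats 1 to 4. C10 rat 1 was the lowest of all 16 rats, and the diets overlapped by C10 rat 2 and REF rat 3 alone. In the CF group the values were 8.65, 9.16, 8.56 and 8.67, and in the I group 8.45, 9.24, 8.63 and 9.29. By group mean the order was REF (9.07 ± 0.36), I (8.90 ± 0.43), CF (8.76 ± 0.27) and C10 (8.15 ± 0.44; SD, n = 4 each). No difference among REF, I and CF passed at an adjusted p below 0.05 in limma, and neither did that between CF and C10, although its 95% interval (-1.07 to -0.29) excluded 0. The fitted change in C10 against REF was -1.01 (SE 0.18, limma adjusted p = 0.021). The exact permutation test of 4 rats against 4, two-sided, gave p = 0.057, where the smallest possible value is 0.0286. On the arrays that held a C10 rat and a REF rat side by side, the differences were -1.69 (rats 1) and -0.83 (rats 2).

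C10 rat 1 also had little smooth muscle signal. The mean log2 signal of 9 tested smooth muscle markers was 11.64 in that rat, 13.68 to 13.81 in the other 3 C10 rats and 13.62 to 14.05 in the REF rats. Of the 9 markers, 0 passed in C10 against REF, with a median log2 fold change of -0.72. All 9 were lower in C10, and 6 had an unadjusted p below 0.05 in limma, beside 17.1% of all genes. The defining markers Myh11 (-0.69), Actg2 (-1.17) and Acta2 (-0.62) were all above the filter. Over the 16 rats, with the dye mean removed, Ptgis had Pearson's r = 0.73 with this list, beside -0.74 with the endothelium list. The genes most like Ptgis in pattern were Casq1 (r = 0.94), Nucb2 (0.94), Ppic (0.93), Eya2 (0.93) and Itgb1bp2 (0.92). C10 rat 1 was the lowest of the 16 rats both in the smooth muscle list and in Ptgis, and r without that rat was not computed. The other 3 C10 rats, at 13.68 to 13.81 in the list, had Ptgis at 8.17 to 8.57, beside 8.56 to 9.40 in REF. The rats on 1 array share that array and the diets differ, so these r values only describe likeness over these 16 rats. Without C10 rat 1 the change of Ptgis was -0.84 (limma, adjusted p = 0.049). Whether the amount of smooth muscle in the pieces had a part in the value of Ptgis was not tested, and in a piece of tissue fewer cells of a type and less RNA per cell cannot be told apart.

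Hpgds makes prostaglandin D2 in mast cells and other cells of hematopoietic origin. Its log2 signal was 7.93, 8.18, 8.05 and 8.45 in the REF rats and 7.69, 7.54, 7.32 and 7.58 in the C10 rats, 8.02, 7.94, 8.45 and 8.23 in the CF rats and 8.56, 8.24, 7.94 and 8.32 in the I rats. All 4 C10 rats lay below all 12 rats of the other diets, a pattern that was not counted over all genes. Over all genes, the 4 C10 rats were all below the 4 REF rats for 2.03%, as they were for 3 of the 10 members (Hpgds, Ltc4s and Alox5ap). The change against REF was -0.57 (SE 0.12, limma adjusted p = 0.038; two-sided exact permutation p = 0.0286). The means in REF (8.15 ± 0.22), CF (8.16 ± 0.23) and I (8.26 ± 0.26; SD, n = 4 each) were closer together than their SDs, and C10 had 7.53 ± 0.16. The 4 arrays that held a C10 rat all gave a lower Hpgds in it: -0.23 and -0.64 against the REF rat, -0.71 and -0.35 against the CF rat.

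Hpgd, which inactivates prostaglandins and is abundant in colon epithelium, ranged from 13.07 to 14.11 over the 16 rats. Its group means lay between 13.43 (CF) and 13.64 (REF), with SDs of 0.35 to 0.46, and the diets overlapped in every comparison. The difference between C10 and REF was -0.15 (95% interval -0.57 to 0.26). Over the 16 rats Hpgd had r = -0.88 with the eosinophil list, -0.86 with the B cell list and 0.82 with the colon epithelium list. The first of these rests on 3 tested genes. The colon epithelium list, whose defining markers Epcam, Cdh1 and Krt8 were bright, had overlapping mean log2 signals of 13.79 to 14.56 in REF and 13.87 to 14.64 in C10.

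Of the leukotriene genes, Alox5, the 5-lipoxygenase, had 8.51 ± 0.21 in REF, 8.24 ± 0.40 in C10, 8.59 ± 0.23 in CF and 8.62 ± 0.16 in I (SD, n = 4). The difference between C10 and REF was -0.19 (SE 0.17, limma adjusted p = 0.62), and C10 rat 3, at 7.68, was the lowest of the 16. Alox5ap, which presents arachidonic acid to Alox5, was 8.24, 8.19, 8.09 and 8.21 in the REF rats and 8.01, 7.94, 7.42 and 8.03 in the C10 rats. C10 rat 3 was again the lowest, and all 4 C10 rats were below all 12 other rats, which was likewise not counted over all genes. The difference from REF was -0.31 (SE 0.10) and did not pass (limma, adjusted p = 0.14; two-sided exact permutation p = 0.0286).

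Ltc4s, the leukotriene C4 synthase, had log2 signals of 7.06, 7.10, 7.17 and 7.0 in the REF rats and 6.96, 6.63, 6.52 and 6.79 in the C10 rats. The groups did not overlap, but C10 rat 1 came within 0.05 of REF rat 4. The CF rats (6.99, 6.89, 6.95 and 7.11) and the I rats (7.05, 6.91, 6.98 and 6.88) lay between them and overlapped with both. Group means ran from REF (7.08 ± 0.07) through CF (6.99 ± 0.09) and I (6.96 ± 0.08) to C10 (6.72 ± 0.19; SD, n = 4 each), and C10 against REF was the only pair that passed, at -0.34 (SE 0.07, limma adjusted p = 0.034; two-sided exact permutation p = 0.0286). The probe was dim, and its change was -0.75 in the processed signals of the scanner software (adjusted p = 0.085 in limma). Within arrays, the log2 difference of Ltc4s was -0.11 and -0.10 where the C10 rat was in Cy5 and -0.47 on both arrays where it was in Cy3.

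The stretch upstream of Ltc4s is shown because it was the only changed gene with an entry in the RefSeq promoter table, beside that of Alox5, the leukotriene enzyme upstream of it in the pathway, whose signal did not pass. Of the 10 genes, 6 had an entry (Alox5, Ltc4s, Ptgs1, Ptgs2, Ptges and Hpgd); Alox15, Alox5ap, Ptgis and Hpgds had none. Both sequences are the 250 bases before the transcription start, 5′ to 3′ on the minus strand of assembly GRCr8, at chr10:35063595-35063844 for Ltc4s and chr4:151251127-151251376 for Alox5. Capitals mark the GATA motif GATAA, the GC box GGGCGG and the CACCC box CACCC, each searched on both strands.
Ltc4s: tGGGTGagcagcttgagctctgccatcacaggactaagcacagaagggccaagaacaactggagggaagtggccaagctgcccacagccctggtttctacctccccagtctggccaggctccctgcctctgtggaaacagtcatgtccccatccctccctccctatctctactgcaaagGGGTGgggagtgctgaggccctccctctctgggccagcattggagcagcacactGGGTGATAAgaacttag
Alox5: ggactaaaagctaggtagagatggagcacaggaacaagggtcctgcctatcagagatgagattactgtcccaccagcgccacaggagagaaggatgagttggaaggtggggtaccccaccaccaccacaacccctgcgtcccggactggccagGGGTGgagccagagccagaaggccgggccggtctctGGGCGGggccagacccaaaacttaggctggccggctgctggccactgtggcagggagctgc
Ltc4s held 1 GATAA, beginning at -13 from the start and overlapping with a CACCC match on the opposite strand, and 3 CACCC matches, all on the opposite strand, but no GGGCGG. Alox5 held 1 GGGCGG, at -61, 1 CACCC match on the opposite strand and no GATAA. Over the 33469 upstream stretches of the same length in the table, 23.5% held GATAA, 30.5% GGGCGG and 49.2% CACCC on either strand. Among the 6 members with an entry, only Ltc4s held GATAA. These are matches of letters, not measured sites.

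Alox15, the 12/15-lipoxygenase, which is known from reticulocytes, eosinophils and macrophages, was the single member that rose. Its log2 signal was 6.52, 6.46, 6.29 and 6.44 in the REF rats and 6.99, 7.24, 6.75 and 7.11 in the C10 rats, and these ranges did not overlap; over all genes, the 4 C10 rats were all above the 4 REF rats for 2.54%. The CF rats (6.88, 6.70, 6.31 and 6.62) spread over both ranges, and the I rats had 6.50, 6.51, 6.55 and 6.53. On the arrays, Alox15 was higher in the C10 rat by 0.47 and 0.79 against REF and by 0.41 against CF, and the other array with a CF rat gave -0.12. The change against REF was 0.57 (SE 0.11, limma adjusted p = 0.023; two-sided exact permutation p = 0.0286). By group mean the order was C10 (7.02 ± 0.21), CF (6.63 ± 0.24), I (6.52 ± 0.02) and REF (6.43 ± 0.10; SD, n = 4 each), and no neighbours in this order differed at an adjusted p below 0.05 in limma, although the 95% interval of C10 against CF (0.10 to 0.55) excluded 0. Alox15 was well above background in all 4 C10 rats and in 3 rats of each other diet, so its size depends on the background correction: it was 1.20 without the offset added to the signals (adjusted p = 0.020 in limma) and 1.78 in the scanner's processed signals (adjusted p = 0.051).

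**Figure D2:**
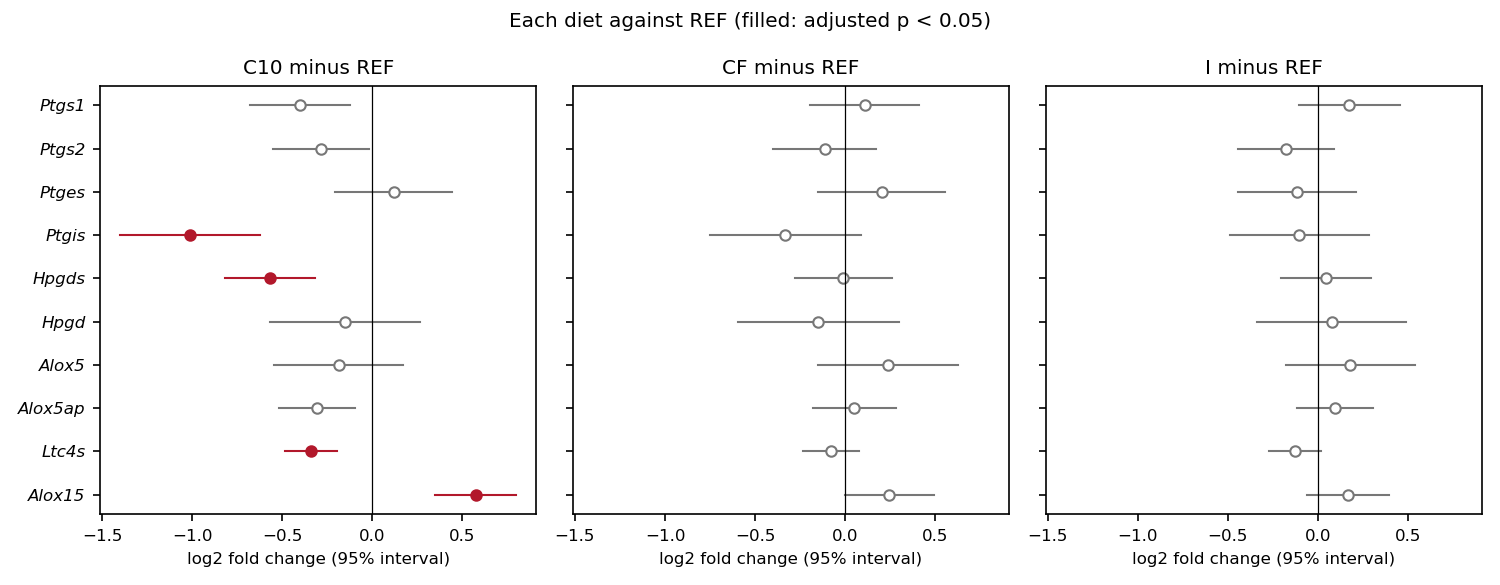
Log2 fold change of each gene (rows) in C10, CF and I minus REF (panels), with 95% intervals from limma; filled points passed at an adjusted p below 0.05. Ptgis, Hpgds, Ltc4s and Alox15 passed in C10, and 0 genes passed in CF or I.

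Because C10 differs from CF in its polyphenols and other cocoa components, the fiber diets were compared with each other as well. In C10 against I, Hpgds passed, at -0.62 (SE 0.13, limma adjusted p = 0.048), where 0.412% of all genes passed in that direction and 0.563% in either; the call held in 6 of 14 other settings and with 5 of 16 rats left out, and the adjusted p was 0.24 when the position of the array on the slide was a term. The 4 C10 rats were all below the 4 I rats for 3 members (Hpgds, Alox5ap and Ptgs2) and all above them for 1 (Alox15), beside 2.47% and 3.33% of all genes, and 6 members had an unadjusted p below 0.05, beside 12.2%. C10 rats lay only on arrays 1 to 4 and I rats only on arrays 5 to 8, so this pair was never side by side. In C10 against CF, 0 of 10 members passed (limma), while 7 had an unadjusted p below 0.05, and over all genes 0.427% passed and 13.4% had such an unadjusted p. For Hpgds and Alox5ap the highest C10 rat lay below the lowest CF rat, which held for 1.96% of all genes. For Hpgds this difference was -0.56 (95% interval -0.81 to -0.31, adjusted p = 0.054), for Ptgis -0.68 (-1.07 to -0.29, adjusted p = 0.12), for Ltc4s -0.26 (-0.41 to -0.12, adjusted p = 0.11) and for Alox15 0.33 (0.10 to 0.55, adjusted p = 0.20). A p that misses the threshold does not show that C10 and CF act alike on these genes. In CF against I, 0 members passed (limma), with 0 at an unadjusted p below 0.05 (2.82% of all genes) and 0 without overlap (1% of all genes), and the difference nearest to it was that of Ptges, at 0.32 (95% interval -0.01 to 0.65).

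**Figure D3:**
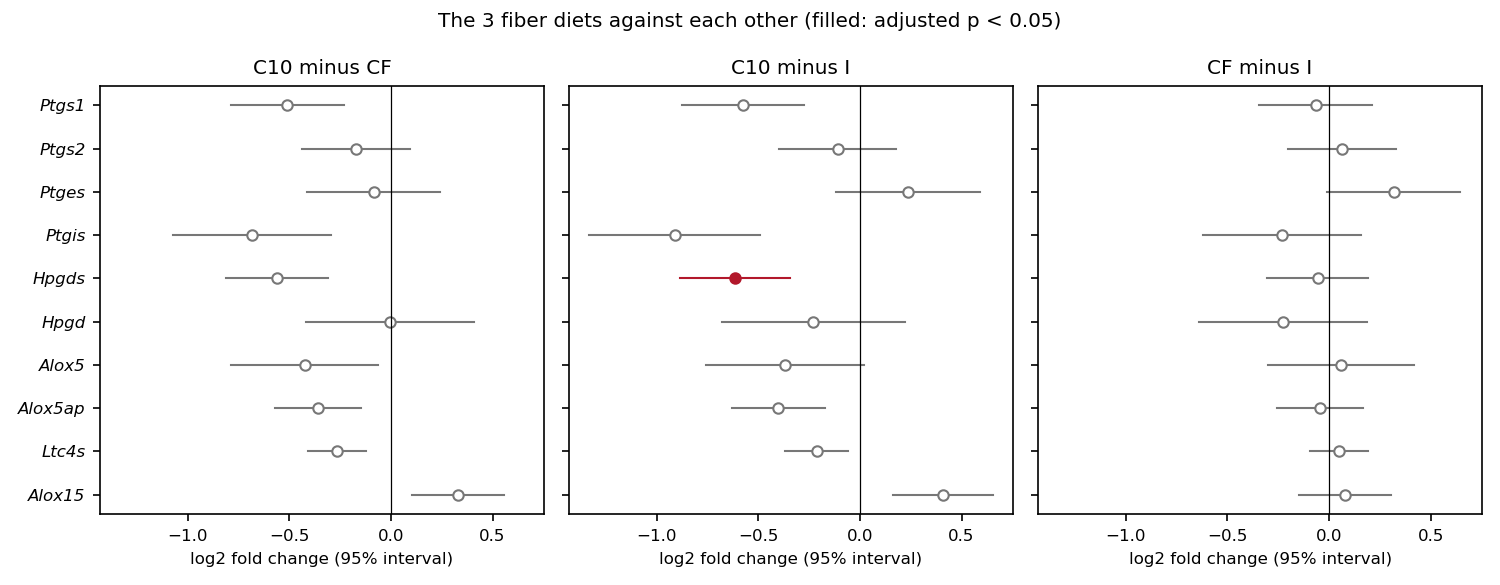
Log2 fold change of each gene (rows) between the fiber diets (panels), with 95% intervals from limma; the filled point passed at an adjusted p below 0.05. Hpgds in C10 against I is the single filled point, and the intervals of Ptgis, Hpgds, Ltc4s, Alox5ap, Ptgs1, Alox5 and Alox15 in C10 against CF exclude 0.

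The other genes of the pathway were taken from lists of 56 genes, of which 52 had a probe and 44 were tested. In C10 against REF, 0 of the 44 passed (limma) and 11 had an unadjusted p below 0.05, as did 17.1% of all genes; the median log2 fold change of the 44 was -0.05. By role, those with an unadjusted p below 0.05 were 1 of 10 phospholipases that release arachidonate, 3 of 6 other prostanoid synthases, 1 of 7 prostanoid receptors, 1 of 6 genes of prostanoid transport and reduction, 4 of 9 other leukotriene enzymes, 0 of 3 leukotriene and pro-resolving receptors and 1 of 3 other lipoxygenases. The smallest p-values in this comparison were those of Tbxa2r, the thromboxane receptor, Abcc4, a prostaglandin exporter, and Alox12e, the epidermal 12-lipoxygenase. Tbxa2r was 7.79, 7.76, 7.77 and 8.02 in the REF rats and 7.49, 7.52, 7.53 and 7.40 in the C10 rats, which did not overlap, with a difference of -0.33 (limma, adjusted p = 0.052). Abcc4 lay at 9.21 to 9.34 in C10 and at 8.88 to 9.17 in REF, and its difference was 0.27 (limma, adjusted p = 0.067). Alox12e differed by -0.67 (SE 0.18, limma adjusted p = 0.081), and C10 rat 2, at 7.52, overlapped with the REF rats.

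One further gene passed in C10 against I: Cyp4f18, a cytochrome P450 that oxidises leukotriene B4, was lower, with a log2 difference of -0.42 (SE 0.08, limma adjusted p = 0.038). Its log2 signal was 6.54, 6.59, 6.62 and 6.57 in the C10 rats and 6.85, 7.18, 6.90 and 6.96 in the I rats, without overlap. The C10 rats were also below all REF rats (6.75 to 6.80), with a difference of -0.23 that did not pass (limma, adjusted p = 0.16). The call against I held in 10 of 14 other settings, being lost without the dye term, with either change to the array block and with position on the slide as a term, and it held with 5 of 16 rats left out (REF rat 4, CF rats 1, 2 and 4, and I rat 1). In CF and in I against REF, 0 of the 44 passed (limma), and 3 had an unadjusted p below 0.05 in each, a share close to that of all genes (6.35% in CF and 5.71% in I). The genes with the smallest p-values are given as values only. Among the smallest p-values there were those of Abcc1, a leukotriene C4 exporter, at 0.43 in CF (adjusted p = 0.68) and 0.31 in I (adjusted p = 0.84). The others were Alox12b, a skin lipoxygenase, at -0.13 in CF and -0.12 in I, Pla2g5, a secreted phospholipase, at 0.18 in CF, and Cyp4f18, at 0.20 in I.

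Among the cell type marker lists, mast cell genes and 1 macrophage gene passed as lower in C10 against REF, and 0 genes of the other lists passed. Of the 17 markers of the mast cell list, 16 were tested. In C10 against REF, 10 of them passed as lower and 0 as higher, beside 0.613% and 0.332% of all genes. By sign alone, 14 were lower and 2 were higher, with a median log2 fold change of -0.94. Among its defining markers, Cpa3, the mast cell carboxypeptidase, fell by 1.58 (limma, adjusted p = 0.013), and Fcer1a, the alpha chain of the IgE receptor, by 0.81 (limma, adjusted p = 0.0052), whereas Kit differed by -0.27 (limma, adjusted p = 0.42). The mean log2 signal of the list was 7.41 to 7.96 in C10 and 8.52 to 8.78 in REF, 8.25 to 8.72 in CF and 8.61 to 8.83 in I, so the C10 rats lay apart from all others. Over the 16 rats this list had r = 0.84 with Hpgds, 0.78 with Alox5ap, 0.77 with Ltc4s, 0.68 with Ptgis and -0.74 with Alox15. The genes most like Ltc4s in pattern were Hdc (r = 0.87), the histamine-forming enzyme, G0s2 (0.86), Bpgm (0.82), Clptm1l (0.81) and Fcer1a (0.81). Those most like Hpgds were Slfn4 (0.89), Ap1s2 (0.88), Slamf9 (0.88), Clec9a (0.88), a receptor of dendritic cells, and Cma1 (0.88), the mast cell chymase. The tuft cell list had r = 0.72 with Ltc4s, 0.72 with Alox5 and 0.38 with Hpgds over the same rats. Its 7 tested genes were all lower in C10 against REF, with a median log2 fold change of -0.10, and 0 passed. Whether the mast cell or tuft cell signal had a part in the values of Hpgds and Ltc4s was not tested.

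All 10 macrophage markers were tested, and 1 passed in C10 against REF: Siglec1, named here after its value was seen, at -0.83 (limma, adjusted p = 0.0029). Of the 10, 9 were lower and 1 was higher, with a median log2 fold change of -0.45. An unadjusted p below 0.05 in limma was found for 6, beside 17.1% of all genes. The defining markers Csf1r (-0.19), Cd68 (-0.41) and Adgre1 (-0.67) did not pass. The list had a mean log2 signal of 8.86 to 9.51 in C10 and 9.43 to 9.79 in REF, and r = 0.76 with Hpgds over the 16 rats. Its part in the value of Hpgds was not tested.

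For Alox15, the gene most like it in pattern was Slc4a1 (r = 0.92), the anion exchanger of red cells, followed by Eif4ebp3 (0.90), Erbb3 (0.89), Epb41l3 (0.88) and Anxa11 (0.87). A list of 7 red cell genes, written after these values were seen, had 5 tested members, Slc4a1 among them. Of these, 0 passed in C10 against REF (limma, 4 at an unadjusted p below 0.05), and the median log2 fold change was 0.66. In that comparison 4 of the 5 were higher and 1 was lower. Hbb-bs, a beta globin, differed by 0.97 (limma, adjusted p = 0.065) and Alas2, the first enzyme of heme synthesis in red cells, by 0.66 (limma, adjusted p = 0.098). The other tested genes were Hba-a3, Slc4a1 and Ahsp, and the lower gene was among these. The list lay at 8.45 to 9.06 in C10, 7.86 to 8.28 in REF, 8.02 to 8.90 in CF and 8.09 to 8.36 in I, and had r = 0.82 with Alox15. That r is partly built in, because the list holds Slc4a1 and was written after the likeness of Slc4a1 to Alox15 was seen. The eosinophil list gave little ground for comparison: 3 of its 6 genes were tested, and Epx, Prg3 and Il5ra did not pass the filter on dim probes. Of the 3 tested in C10 against REF, 1 was higher and 2 (Ccr3 and Cebpe) were lower, with a median log2 fold change of -0.04. The higher one, Prg2, a granule protein, differed by 0.82 (limma, adjusted p = 0.52). The parts of red cells and eosinophils in the values of the members were not tested.

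**Figure D4:**
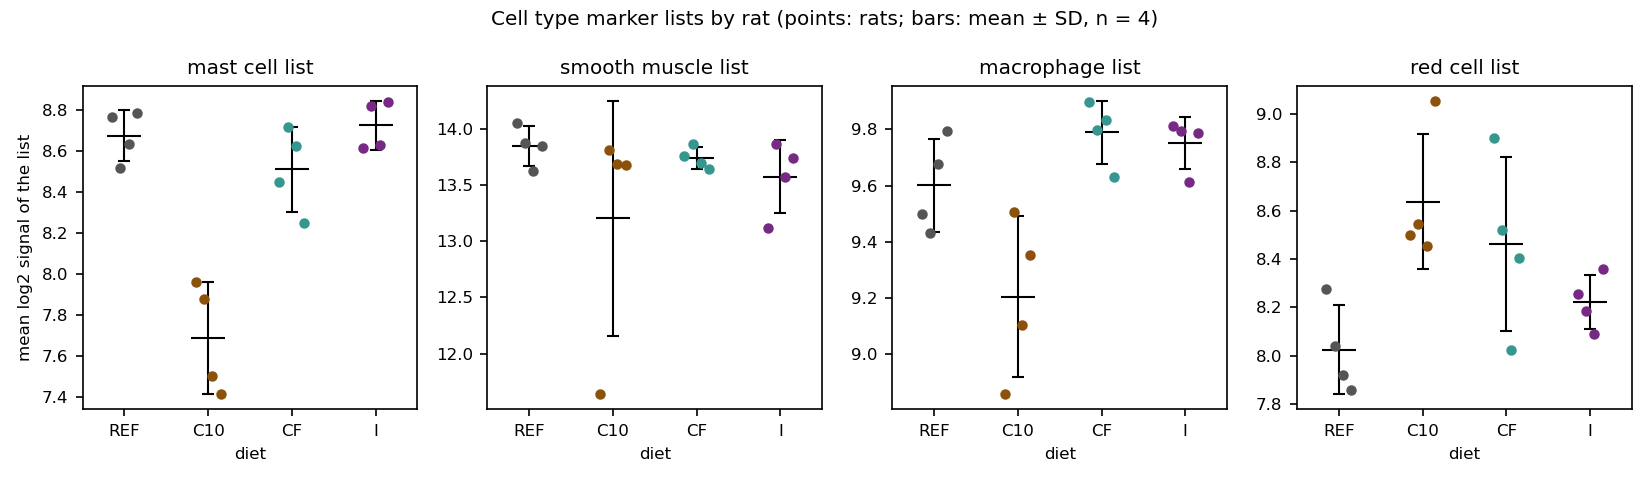
Mean log2 signal of 4 marker lists (vertical axis, with its own range) in each rat by diet (horizontal axis), with the mean and SD of 4 rats as bars. The mast cell list of the C10 rats (7.41 to 7.96) was below that of all other rats, and C10 rat 1 stood apart in the smooth muscle list at 11.64.

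Of the other lists, 0 genes passed in C10 against REF in limma: colon epithelium (10 tested, 1 with an unadjusted p below 0.05), tuft cell (7 and 0), mesothelium (4 and 0), fibroblast (6 and 1), endothelium (5 and 1), eosinophil (3 and 1), neutrophil (3 and 0), B cell (6 and 0), adipocyte (4 and 2) and posterior Hox genes (4 and 2). The posterior Hox list, which follows position along the colon, ranged from 6.68 to 9.18 in REF and from 8.93 to 10.51 in C10, with the lowest value in REF rat 4 and the highest in C10 rat 4. Its part in the members' values was not tested.

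The members also varied together across rats. Over the 16 rats, Ptgis and Ptgs1 had r = 0.86, Alox5ap had r = 0.76 with both Alox5 and Hpgds and 0.74 with Ltc4s, and Alox15 had r = -0.78 with Hpgds and -0.73 with Ltc4s. Ptges had -0.63 with Hpgd. These values hold the differences between diets as well as those between rats of 1 diet.

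The 4 changes in C10 against REF kept their direction in all 14 other settings and with any 1 of the 16 rats left out, but their calls did not always hold. Ptgis and Alox15 each passed in 11 of the 14 settings and 13 of the 16 left-out rats, Ltc4s in 9 and 9, and Hpgds in 9 and 8. In particular, 0 of the 4 passed when only the log-ratios within arrays were used, when the 16 channels were treated as independent, or without REF rat 2 (adjusted p of 0.13 to 0.14, limma). Over all genes, 0, 42 and 35 passed in these fits, in that order, beside 188 as reported, so calls were lost over the whole array. Without REF rat 4 only Ltc4s passed (72 of all genes), and without C10 rat 2 only Ptgis (106 of all genes). Alox15 and Hpgds passed without REF rat 1, and Alox15 and Ptgis passed without C10 rat 3, I rat 2 or I rat 4. Ltc4s was also lost without CF rat 3 (adjusted p = 0.055, limma), and Hpgds without CF rat 4 (0.052) or I rat 1 (0.051). In the model as reported, the 2 rats of an array were correlated, with an estimate of 0.42.

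**Figure D5:**
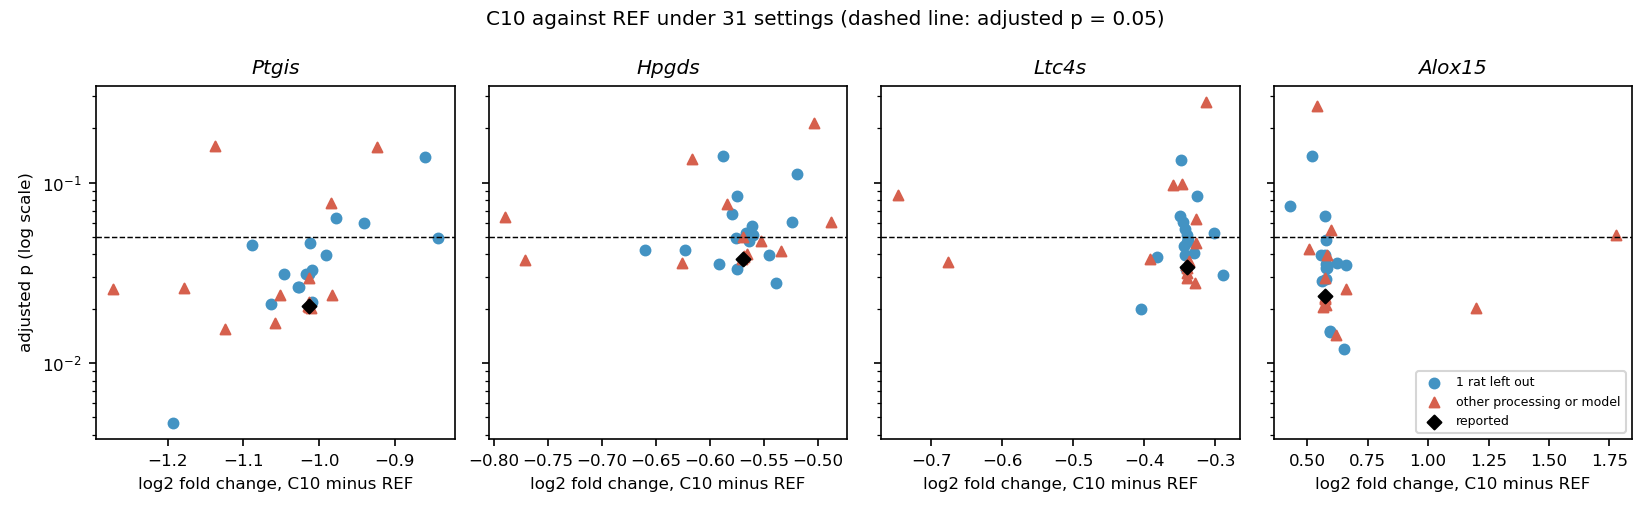
Adjusted p from limma (vertical axis, log scale) against the log2 fold change in C10 minus REF (horizontal axis) for the 4 changed genes, with 1 point for each setting; the dashed line marks 0.05. Points lie on both sides of the line for each gene, and the sign of the change is the same at all points.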

How the data were processed

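The authors hybridised RNA from 16 rats to 8 two-colour Agilent arrays on 1 slide, all with the same scan time, and deposited the output of Feature Extraction 10.7.3.1 (per the file headers), which gives the median intensity and local background of each spot in both dyes. Intensities were corrected with normexp (offset 50), then normalized with spatial loess (span 0.4), intensity loess (span 0.3) and Aquantile, in limma 3.58.1 (R 4.3.3, statmod 1.5.0 and the data.table package, version 1.17.8). These are the steps that the study's methods name; the offset and spans were chosen here. Spots of the same probe were averaged on the log2 scale in each dye. Probes well above background in at least 4 of 16 rats were kept (22537 of 30367), and a gene was read from its brightest probe. Of the spots of a rat, 68.6 to 83.9% were well above background, the lowest such log2 signal was 5.82 to 6.21, and the number of arrays limits the precision.

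Diet and dye were fixed terms and the array a random block; Benjamini-Hochberg adjustment covered all genes of a comparison. Rank product, the study's test, was not run, because its error rate permutes genes. On simulated data for C10 against REF over 19899 genes, 96 of 100 changes of 1 on the log2 scale and 70 of 100 changes of 0.5 were recovered, with 5 false calls. These shares describe the simulated data only. The SE of a member in this comparison ran from 0.07 (Ltc4s) to 0.19 (Hpgd), so they do not give the power for a single member. The labels give each rat 1 array and 1 dye, although the methods speak of dye swaps for each sample. The deposited matrix of normalized values, with 8 columns, was not used, because its column names match no label. The processed intensities that the authors deposited entered 1 alternative.

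Members and gene lists were chosen with earlier results of these data known. The text names all members, the other pathway genes that passed in any comparison or had 1 of the 3 smallest p-values in a comparison against REF, up to the first 3 tested markers of a list where it is discussed, and the 5 genes most correlated with each changed member. Symbols came from RefSeq (GRCr8), which named 17935 of the 19109 probes that carry an mRNA accession.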

Additional observations from a re-analysis of the deposited data

Results flagged for a closer look

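Each group of 4 rats was tested for a rat far from the other 3 (Dixon's test at its 95% critical value, which chance alone passes in about 1 of 20 groups); 7 of 124 groups were beyond it. Among the members, only Alox5ap was: C10 rat 3 had 7.42, with the next rat at 7.94. Among the other pathway genes named, Tbxa2r was high in REF rat 4 (8.02, next 7.79), Abcc4 was low in I rat 1 (8.81, next 8.99) and Abcc1 was high in I rat 3 (10.53, next 10.27). Among the marker lists, smooth muscle was low in C10 rat 1 (11.64, next 13.68), the macrophage list was low in I rat 3 (9.61, next 9.79), and the red cell list was high in C10 rat 4 (9.06, next 8.54).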

How the results depend on the processing

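The choices tried were 14 other settings and leaving out each of the 16 rats in turn. In CF against REF, I against REF and CF against I, 0 members and 0 other pathway genes passed in any of them. In C10 against REF, members that passed numbered 1 with the processed signals (Ptgis), 1 without the dye term (Alox15), 2 with position on the slide as a term (Alox15 and Ptgis), 0 with the array as a fixed replicate block and 0 without any replicate block, compared with 4 as reported, and ranged from 0 (without REF rat 2) to 5 (without REF rat 3, which added Ptgs1). The number of all genes that passed moved as well: 141 with the processed signals, 68 without the dye term and 132 with position on the slide. It was 0 with the array as a fixed replicate block and 42 without any replicate block. Leaving out REF rat 2 gave 35 and leaving out REF rat 3 gave 684, compared with 188 as reported. Other pathway genes in this comparison numbered 1 without background correction (Tbxa2r) and 0 to 2 with a rat left out (2 without REF rat 3, Tbxa2r and Pla2g4a, the latter named after its value was seen), compared with 0. In C10 against CF, they numbered 1 without the offset and 1 with the processed signals (Cyp4f18 in both), and 0 to 1 with a rat left out, compared with 0, while members numbered 0 to 2 with a rat left out (2 without C10 rat 1, Hpgds and Ltc4s). All genes that passed there numbered 75 without the offset, 62 with the processed signals and 148 without C10 rat 1, compared with 85. In C10 against I, members numbered 0 with the processed signals, quantile normalization, no filter on dim probes, no dye term, either change to the replicate block and position on the slide, and 0 to 2 with a rat left out, compared with 1, and without normalization between arrays Ptgis (-0.998) passed in place of Hpgds; other pathway genes numbered 0 without the dye term, with either change to the replicate block and with position on the slide, and 0 to 1 with a rat left out (Alox12e in place of Cyp4f18 without REF rat 2 or C10 rat 2), compared with 1. All genes that passed in C10 against I numbered 89 with the processed signals, 114 with quantile normalization and 93 without the filter on dim probes. They numbered 63 without the dye term, 0 with the array as a fixed replicate block and 58 without any replicate block. With position on the slide they numbered 20, compared with 112 as reported. The cause of the lost calls was not tested. The paired fit was the one with the array as a replicate block, and the rats' own numbers pair no samples.

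Differences near 0 changed sign, and none of them had passed. For Hpgd in C10 against CF, the log2 difference became 0.0048 without the offset, 0.0040 without background correction, 0.038 with processed signals, 0.0024 without spatial loess, 0.037 with quantile normalization, 0.029 without the dye term and 0.095 without the replicate block. Processed signals gave -0.036 for Ptgs2 in CF against I. The array as a fixed replicate block gave -0.050 for Hpgds in I against REF, 0.12 for Ptgs2 in C10 against I and 0.010 for Hpgds in CF against I. No replicate block gave -0.0024 for Alox5ap and 0.012 for Hpgds in CF against REF, -0.021 for Hpgd in I against REF, and -0.034 for Alox5 and -0.0042 for Ptgs2 in CF against I. Position on the slide gave 0.0087 for Ptgis and -0.035 for Hpgds in I against REF, 0.12 for Ptgs2 in C10 against I and 0.026 for Hpgds in CF against I. With a rat left out, the ranges that crossed 0 were -0.0068 to 0.26 for Ptges in C10 against REF; -0.031 to 0.24 for Ptgs1, -0.23 to 0.015 for Ptgs2 and -0.10 to 0.054 for Hpgds in CF against REF; -0.20 to 0.10 for Ptges, -0.026 to 0.18 for Hpgds and -0.22 to 0.23 for Hpgd in I against REF. In C10 against CF they were -0.17 to 0.12 for Ptges and -0.084 to 0.12 for Hpgd. In CF against I they were -0.00065 to 0.20 for Alox15, -0.034 to 0.14 for Alox5, -0.10 to 0.010 for Alox5ap, -0.15 to 8.6e-05 for Ptgs1, -0.078 to 0.12 for Ptgs2 and -0.17 to 0.013 for Hpgds.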
